A study of Mus musculus with 24 samples.

Results

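The Hox genes encode homeodomain transcription factors and lie in clusters named a to d, in which each gene is numbered by its paralog position. The members described here were all protein-coding gene models whose symbol was Hox, a cluster letter and a paralog number, which gave 40 gene models of the 37991 gene rows of the count table. These were 12 models of the Hoxa cluster on chromosome 6, 10 of the Hoxb cluster on chromosome 11, 9 of the Hoxc cluster on chromosome 15 and 9 of the Hoxd cluster on chromosome 2. They carried 39 symbols, because the annotation held 2 models named Hoxa3. Members were called anterior (paralogs 1 to 3, 9 models), central (paralogs 4 to 8, 15 models) or posterior (paralogs 9 to 13, 16 models). A total of 36 models had a count in at least 1 library, and Hoxb13, Hoxc13, Hoxd13 and one of the Hoxa3 models (ENSMUSG00000059723) had none. That Hoxa3 model shared 99.9% of its exon bases with other models on the same strand, so no lack of expression is read from it.

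Hox genes are expressed along the body axis in the order in which they lie on the chromosome, and in adult tissues their combination marks where along the axis a cell came from. Their products bind DNA together with PBX and MEIS cofactors, and Polycomb and Trithorax proteins keep their clusters silent or active. Hox genes are expressed in both the epithelium and the stroma of the mammary gland, and mice that lack the paralogs Hoxa9, Hoxb9 and Hoxd9 cannot expand the gland in pregnancy.

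The study profiled RNA from mammary tissue of female mice at 4 ages, in which tumors of the PyMT model were compared with normal glands. PyMT animals were F1 females heterozygous for the polyomavirus middle T transgene of the FVB/N-Tg(MMTV-PyVT)634Mul/J line. The transgene is driven by the mouse mammary tumor virus long terminal repeat, which is active mainly in mammary epithelium, so the tumors start in that compartment. Controls were FVB females without the transgene, and both genotypes thus shared the FVB background. PyMT tissue stood for hyperplasia (week 6), for adenoma or mammary intraepithelial neoplasia (week 8), and for carcinoma that was early (week 10) or late (week 12), and FVB glands were taken at the same 4 ages. The paper's histology found mostly tumor cells in the carcinoma samples, with few stromal and muscle cells and rare inflammatory cells. Each of the 8 groups had 3 libraries, from 3 mice by the study's methods, and which of the gland pairs was taken is not given in the sources used here.

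Libraries held 6969375 to 13516601 counts on genes. In 13 of the 24 libraries (6 PyMT and 7 FVB) the counts of weakly expressed genes did not spread evenly down to 1 but piled up around a common value of 8 to 25 counts, called here a packet size, so a low gene was often either at 0 or near that value. PyMT libraries with a packet size had a count for 3 to 15 members and those without one for 16 to 30, while in FVB the ranges overlapped, at 19 to 28 and 25 to 31. In 7 libraries (3 PyMT and 4 FVB) the 10 skeletal muscle markers, among them Acta1 and Ckm, summed to over 1000 CPM, the count scaled to a common library total, up to 45080 CPM in FVB week 6 replicate 1. Both kinds of library are left out in turn beside the main result below. The epithelial markers Krt8, Krt18, Epcam and Cdh1 of the labelled tissue were present in all groups, with the 8 luminal markers summing to 344 to 2086 CPM in FVB and 2940 to 6394 CPM in PyMT.

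Because members of a cluster share a neighbourhood, the sequence just before the annotated start is shown for the member of the Hoxa, Hoxb and Hoxd clusters with the smallest week-blocked adjusted p among members past the filter on low counts described below, as 250 bases of build mm9 read 5′ to 3′ on the gene's strand, with each CG dinucleotide in capitals. They lie at chr6:52171854-52172103 on the minus strand (Hoxa7), chr11:96163659-96163908 on the plus strand (Hoxb5) and chr2:74542422-74542671 on the plus strand (Hoxd8).
Hoxa7: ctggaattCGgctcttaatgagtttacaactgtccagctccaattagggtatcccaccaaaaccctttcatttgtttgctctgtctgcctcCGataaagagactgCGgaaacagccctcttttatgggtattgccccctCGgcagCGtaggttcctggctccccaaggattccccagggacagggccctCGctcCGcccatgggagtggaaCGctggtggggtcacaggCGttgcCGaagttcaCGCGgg
Hoxb5: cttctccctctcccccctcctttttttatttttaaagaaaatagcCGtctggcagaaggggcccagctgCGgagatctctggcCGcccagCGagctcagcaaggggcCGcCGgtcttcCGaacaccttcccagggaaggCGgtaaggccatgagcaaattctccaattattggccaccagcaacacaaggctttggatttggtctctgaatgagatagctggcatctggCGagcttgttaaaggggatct
Hoxd8: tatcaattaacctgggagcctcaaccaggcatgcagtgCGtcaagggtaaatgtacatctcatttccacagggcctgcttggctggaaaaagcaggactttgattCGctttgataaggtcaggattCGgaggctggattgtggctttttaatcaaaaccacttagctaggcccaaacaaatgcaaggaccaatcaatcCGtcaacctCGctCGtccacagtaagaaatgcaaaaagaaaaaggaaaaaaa
The Hoxa7 stretch held 12 CG dinucleotides, that of Hoxb5 held 9 and that of Hoxd8 held 6. Over the 40 models the count ran from 2 to 41 with a median of 11, and the median of all 22337 protein-coding genes was 8. The letters TGATNNAT, a site shape bound by PBX and Hox proteins together, were searched on both strands and occurred in 6 of the 40 Hox stretches (15%) and in 6.95% of all stretches of this length, and in none of the 3 shown. The members shown thus ran from below to above the typical CG count of a mouse gene.

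Hox RNA was lower in PyMT tissue than in normal gland as a whole and in 24 of the 36 members with a count. The 40 models together summed to 8.96 to 52.5 CPM in the 12 PyMT libraries and to 112 to 284 CPM in the 12 FVB libraries, so the ranges were apart. In counts normalised by DESeq2 size factors, which is the scale of all levels below, the sum was 227 ± 113 (SD, n = 12) in PyMT and 1699 ± 472 (SD, n = 12) in FVB. The gap stood also among the 11 libraries without a packet size, at 12.5 to 52.5 CPM in 6 PyMT and 159 to 173 CPM in 5 FVB libraries. It stood as well among the 17 libraries with muscle markers under 1000 CPM, at 8.96 to 52.5 CPM in 9 PyMT and 112 to 284 CPM in 8 FVB libraries. In tissue RNA, fewer cells that express a gene and less RNA per cell cannot be told apart.

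**Figure D1:**
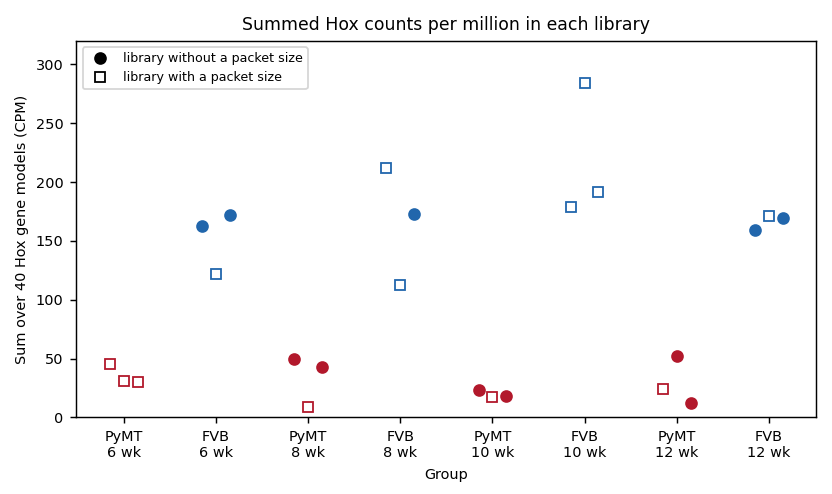
Summed CPM of the 40 Hox gene models in each of the 24 libraries, by genotype and age, with squares for libraries that had a packet size and circles for the others. All 12 PyMT libraries lie between 8.96 and 52.5 CPM, below the 12 FVB libraries at 112 to 284 CPM.

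The week-blocked comparison fitted all 12 PyMT and 12 FVB libraries with week as a block (edgeR quasi-likelihood test), and a gene was called differentially expressed (DEG) when it changed more than 2-fold at an adjusted p below 0.05. With every gene that had a count in the fit, 24 of the 36 members with a count were DEGs, all of them lower in PyMT, where 12.7% of all genes were lower DEGs. Of the other 12 members, 10 had a lower value in PyMT and 2, Hoxa11 and Hoxd12, a higher one. The filter used for the main fit, at least 1 CPM in at least 12 of the 24 libraries, was passed by 19 members. Each of these reached 1 CPM in more FVB than PyMT libraries, so their place in the fit rests on the group in which they were high. All 19 were lower DEGs in that fit, in which 17.2% of the 14918 tested genes were. Given how they entered it, nothing is read from that count, nor from the counts out of these 19 in the other fits below. Their log2 fold changes ran from -1.38 (Hoxb4) to -4.79 (Hoxd4), beside a median of -0.03 over all tested genes. Scaling by library size alone moved the median of all genes to 0.26 and left all 19 values negative, with 16 still DEGs beside 13.4% of all genes lower. The 13 libraries with a packet size include every PyMT library of week 6 and every FVB library of week 10. Without them the week-blocked difference rested on weeks 8 and 12. In that fit 10 of the 19 stayed DEGs (14.6% of all genes were lower DEGs) with 11 libraries left. The other 9 had log2 fold changes of -3.21 (Hoxa7), -2.71 (Hoxa9), -0.24 (Hoxa10), -1.22 (Hoxb2), -1.96 (Hoxb3), -0.98 (Hoxb4), -1.89 (Hoxb6), -1.71 (Hoxc9) and -2.27 (Hoxd4), with edgeR adjusted p from 0.0528 (Hoxb3) to 0.899 (Hoxa10). In those 11 libraries 16 of 35 members with a count were lower DEGs and 30 had a lower value in the fit without the filter, where 11% of all genes were lower DEGs. Without the 7 libraries with muscle markers over 1000 CPM 16 of the 19 stayed DEGs, with 15.4% of all genes lower, and Hoxa10, Hoxb2 and Hoxb4 did not. Differences between single members were not tested.

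**Figure D2:**
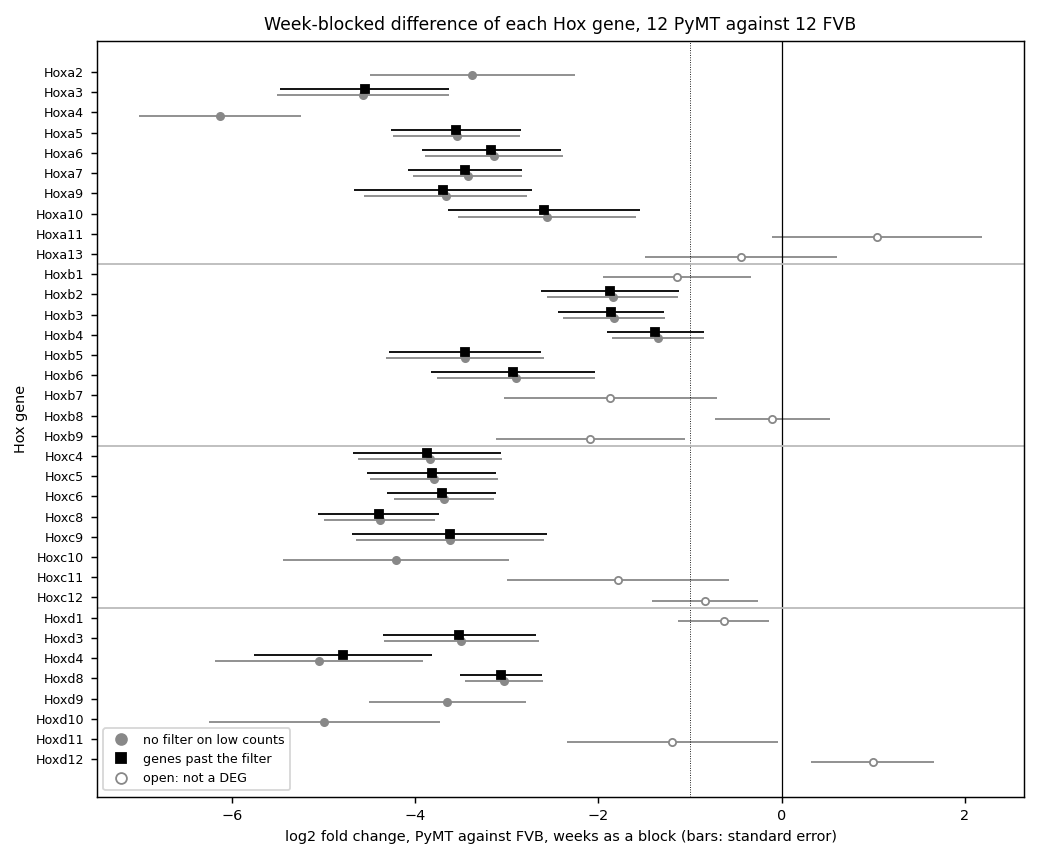
Week-blocked log2 fold change of PyMT against FVB (x axis) for 35 of the 36 Hox genes with a count (y axis, by cluster and paralog number), with standard errors as bars, black squares for genes past the filter, gray circles for the fit without it and open symbols for genes that were not DEGs. The 19 squares lie between -4.79 and -1.38, and only Hoxa11 and Hoxd12 lie above 0.

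Among the anterior genes, Hoxa3, which patterns the pharyngeal region and the thymus, had the lowest value of those past the filter, a log2 fold change of -4.55 ± 0.92 (SE) and an adjusted p of 0.000223 by edgeR. In PyMT, Hoxa3 had 0, 0 and 0 at week 6, 2.86, 0 and 13.5 at week 8, 2.67, 0 and 0 at week 10 and 8.22, 0 and 1.85 at week 12. In FVB it had 44.0, 0 and 48.5 at week 6, 26.5, 24.4 and 32.8 at week 8, 41.0, 10.0 and 78.2 at week 10 and 76.7, 97.0 and 63.4 at week 12. All 3 PyMT libraries of week 6, each with a packet size, and 1 FVB library of that age were at 0, and no fold is given for that age. At weeks 8, 10 and 12 the groups did not overlap. A share of 33% of the exon bases of this Hoxa3 model lay in the second Hoxa3 model on the same strand.

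Hoxd3 also fell, by 3.52 on the log2 scale with an SE of 0.83 and an edgeR adjusted p of 0.00106. In PyMT, Hoxd3 stood at 0.890, 13.6 and 10.8 at week 6, 0, 0 and 3.53 at week 8, 1.78, 0 and 6.82 at week 10 and 0, 11.8 and 0 at week 12. In FVB, Hoxd3 stood at 67.2, 10.8 and 48.5 at week 6, 0, 66.3 and 35.0 at week 8, 15.1, 64.1 and 56.3 at week 10 and 36.3, 59.2 and 44.8 at week 12. The groups overlapped at weeks 6 and 8 and were apart at weeks 10 and 12. Exon bases shared with Hoxd4 on the same strand made up 29.8% of Hoxd3.

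Hoxb2 and Hoxb3, which act in the hindbrain in the embryo, had log2 fold changes nearer to 0 than the other anterior genes past the filter. Hoxb3 was at 25.6 ± 19.8 in PyMT and 87.2 ± 38.7 in FVB (SD, n = 12 each), with a log2 fold change of -1.86 ± 0.58 (SE) and an edgeR adjusted p of 0.00949. Hoxb2 was at 17.9 ± 19.6 and 62.1 ± 42.6 (SD, n = 12 each), with -1.87 ± 0.75 (SE) and an edgeR adjusted p of 0.0409. It lost its call when any 1 of 11 of the 24 libraries was left out, at log2 fold changes of -2.49 to -1.63 over all of them. The annotated antisense transcript Hoxb3os covers 1632 exon bases of Hoxb2 and 1140 of Hoxb3. The paper's methods describe directional libraries, but whether the authors counted by strand is not given in the sources used here. Reads of these genes and of Hoxb3os may therefore be mixed. Hoxa2, Hoxb1 and Hoxd1 did not pass the filter. Hoxa2, a selector gene of the branchial arches, was a lower DEG without it (-3.38 ± 1.12 (SE), edgeR adjusted p = 0.0185). Hoxb1 and Hoxd1 had normalised counts of at most 1.56 in any library.

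The central genes took most of the Hox reads, with 67.2% of the summed normalised counts, not scaled by gene length, in FVB and 61.9% in PyMT. Hoxc8, which sets the identity of the thoracic region, fell by 4.40 on the log2 scale (SE 0.66, edgeR adjusted p = 5.29e-06). In PyMT, Hoxc8 was at 10.7, 0 and 0 at week 6, 48.7, 0 and 32.9 at week 8, 3.56, 0 and 0.853 at week 10 and 27.8, 17.1 and 5.54 at week 12. In FVB, Hoxc8 was at 123, 58.6 and 161 at week 6, 389, 53.5 and 231 at week 8, 178, 263 and 79.8 at week 10 and 237, 203 and 293 at week 12. Every PyMT library lay below every FVB library, the highest PyMT value being 48.7 and the lowest FVB value 53.5. Hoxa4 was the other member for which this held across all 24 libraries; 4.14% of all genes with a count were placed this way.

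Hoxc6, a further thoracic gene next to Hoxc8, showed a log2 fold change of -3.71 ± 0.59 (SE) with an adjusted p of 1.27e-05 (edgeR). In PyMT, Hoxc6 reached 51.6, 0 and 9.64 at week 6, 30.5, 0 and 21.8 at week 8, 5.34, 15.7 and 3.41 at week 10 and 8.22, 5.34 and 6.47 at week 12. In FVB, Hoxc6 reached 187, 40.9 and 122 at week 6, 293, 38.4 and 167 at week 8, 165, 204 and 275 at week 10 and 194, 101 and 210.0 at week 12. The groups were apart at each of the 4 ages except week 6, where PyMT replicate 1 lay above FVB replicate 2. Hoxc5 and Hoxc4 lie next in the cluster.

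Hoxc5 had a log2 fold change of -3.82 ± 0.71 (SE) and an adjusted p of 7.64e-05 by edgeR. In PyMT, Hoxc5 measured 0.890, 0 and 4.54 at week 6, 4.77, 0 and 12.4 at week 8, 5.34, 0 and 0 at week 10 and 40.1, 5.34 and 1.85 at week 12. In FVB, Hoxc5 measured 34.8, 30.9 and 77.5 at week 6, 124, 34.9 and 62.2 at week 8, 49.6, 109 and 25.0 at week 10 and 112, 58.0 and 97.3 at week 12. Only PyMT week 12 replicate 1 was above the lowest FVB library, and the 3 libraries of each genotype did not overlap at any age. Hoxc4 had -3.88 ± 0.81 (SE) and an adjusted p of 0.000297 by edgeR. In PyMT, Hoxc4 gave 19.6, 0 and 0 at week 6, 0, 0 and 7.65 at week 8, 8.90, 0 and 11.9 at week 10 and 0, 0 and 3.70 at week 12. In FVB, Hoxc4 gave 46.4, 94.9 and 46.7 at week 6, 18.9, 61.6 and 48.6 at week 8, 64.0, 60.1 and 86.1 at week 10 and 75.3, 30.2 and 82.0 at week 12. A total of 7 PyMT libraries and no FVB library were at 0 for Hoxc4, and the groups overlapped at none of the 4 ages.

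Hoxa7 and Hoxa5 had the highest levels per kb of exon in the Hoxa cluster. Hoxa5, needed for lung and thoracic skeleton development and reported to activate the p53 gene in breast cells, had a log2 fold change of -3.56 ± 0.71 (SE) and an edgeR adjusted p of 0.000191. In PyMT, Hoxa5 counted 0, 0 and 4.54 at week 6, 7.63, 40.3 and 4.71 at week 8, 6.23, 25.2 and 5.12 at week 10 and 0, 5.34 and 1.85 at week 12. In FVB, Hoxa5 counted 99.7, 44.7 and 12.3 at week 6, 82.0, 38.4 and 28.3 at week 8, 38.8, 60.1 and 249 at week 10 and 116, 31.5 and 84.2 at week 12. The groups overlapped at week 8 and were apart at the other ages. The highest PyMT library, week 8 replicate 2, had a packet size of 23 and only 3 members with a count. The highest FVB library, week 10 replicate 3, had a packet size of 19. Without the 7 muscle-rich libraries, to which the latter belongs, the log2 fold change was -2.33, with an adjusted p of 0.0143 by edgeR.

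Hoxa7, which acts in the trunk skeleton, had a log2 fold change of -3.46 ± 0.62 (SE) and an edgeR adjusted p of 5.72e-05. In PyMT, Hoxa7 amounted to 6.23, 30.2 and 9.64 at week 6, 34.3, 20.6 and 7.65 at week 8, 0, 0 and 17.1 at week 10 and 2.06, 1.07 and 9.24 at week 12. In FVB, Hoxa7 amounted to 216, 60.9 and 69.6 at week 6, 131, 48.8 and 48.6 at week 8, 124, 185 and 191 at week 10 and 153, 26.5 and 104 at week 12. The groups did not overlap at any of the 4 ages. Hoxa6 followed with -3.17 ± 0.76 (SE) and an adjusted p of 0.00122. Hoxa4 did not pass the filter; without it Hoxa4 had the lowest log2 fold change of all members (-6.13 ± 0.89 (SE), edgeR adjusted p = 9.52e-07), with normalised counts of 0 to 1.18 in PyMT and 5.65 to 74.1 in FVB.

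Among the 19 members past the filter, Hoxd8 had the smallest adjusted p (3.49e-06, edgeR) and a log2 fold change of -3.07 ± 0.45 (SE). In PyMT, Hoxd8 came to 86.4, 53.2 and 21.6 at week 6, 6.68, 8.44 and 9.41 at week 8, 17.8, 0 and 29.0 at week 10 and 7.20, 35.3 and 12.0 at week 12. In FVB, Hoxd8 came to 377, 299 and 113 at week 6, 153, 58.1 and 99.4 at week 8, 70.4, 252 and 305 at week 10 and 202, 61.8 and 110.4 at week 12. The groups were apart at each age, and PyMT week 6 replicate 1, the highest PyMT library, exceeded 3 FVB libraries of other ages. Hoxd4, a gene of the neck vertebrae, had -4.79 ± 0.97 (SE) and an adjusted p of 0.000215 by edgeR. In PyMT, Hoxd4 yielded 0, 0 and 0 at week 6, 0, 0 and 1.18 at week 8, 0, 0 and 0 at week 10 and 0, 16.0 and 0 at week 12. In FVB, Hoxd4 yielded 16.2, 19.3 and 22.9 at week 6, 24.0, 10.5 and 21.5 at week 8, 19.4, 15.0 and 56.3 at week 10 and 13.5, 13.9 and 18.6 at week 12. Hoxd4 was thus seen in 2 PyMT libraries and in all 12 FVB libraries, and the groups overlapped at week 12 through PyMT replicate 2. All 3 PyMT libraries of week 6 had a packet size, and without the libraries with a packet size Hoxd4 was no DEG (-2.27, adjusted p = 0.16 by edgeR). A share of 67.4% of the Hoxd4 exon bases is shared with Hoxd3.

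**Figure D3:**
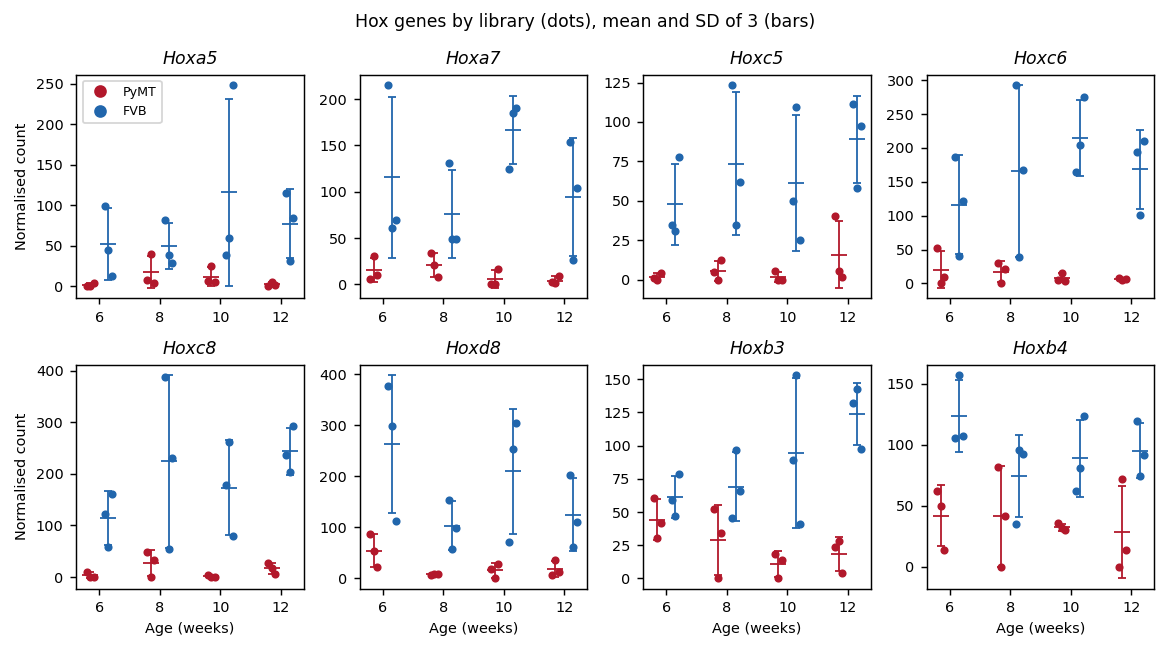
Normalised counts (y axis) of 8 central and anterior Hox genes by age in weeks (x axis), with a dot for each library and the mean and SD of 3 libraries as bars, red for PyMT and blue for FVB. Hoxc8 in PyMT stays at or below 48.7 while FVB is at 53.5 or more, and Hoxb3 and Hoxb4 overlap between genotypes at week 8.

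Of the central genes of the Hoxb cluster 3 passed the filter. Hoxb4, a gene known for its effect on blood stem cells, fell by 1.38 on the log2 scale (SE 0.53, edgeR adjusted p = 0.0331), from 95.5 ± 31.4 in FVB to 36.0 ± 26.9 in PyMT (SD, n = 12 each). It lost its call when PyMT week 6 replicate 3, PyMT week 12 replicate 3, FVB week 6 replicate 2 or FVB week 12 replicate 1 was left out, at -1.67 to -1.23 over all 24. Hoxb5 went from 37.1 ± 33.7 to 3.72 ± 5.75 (SD, n = 12 each), a log2 fold change of -3.46 ± 0.83 (SE) with an adjusted p of 0.00118, and Hoxb6 from 47.3 ± 31.2 to 6.74 ± 9.24, a log2 fold change of -2.93 ± 0.89 (SE) with an adjusted p of 0.00816. Hoxb2, Hoxb3 and Hoxb4 had the 3 log2 fold changes nearest to 0 of the 19 members past the filter. Hoxb7 and Hoxb8, which share exon bases on the same strand (26.2% of Hoxb7 and 40.4% of Hoxb8), were no DEGs without the filter, with -1.87 ± 1.16 (SE) for Hoxb7 and -0.10 ± 0.63 (SE) for Hoxb8, whose normalised counts stayed at 4.27 or less in every library.

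Of the 16 posterior models 13 had a count and 3 passed the filter: Hoxa9, Hoxa10 and Hoxc9. Hoxa9, best known from leukemia, was at 0 to 36.5 with a median of 4.28 in PyMT and 0 to 189 with a median of 107 in FVB, with a log2 fold change of -3.70 ± 0.98 (SE) and an edgeR adjusted p of 0.00277. Hoxc9 ran over 0 to 20.6 with a median of 0 in PyMT and 0 to 144 with a median of 27.9 in FVB (-3.63 ± 1.06 (SE), adjusted p = 0.00625). Hoxa10, which patterns the uterus, had the weakest call of all 19 members (-2.59 ± 1.05 (SE), edgeR adjusted p = 0.0422). It was lost when any 1 of 15 of the 24 libraries was left out, at -3.38 to -2.30, and without the libraries with a packet size its log2 fold change was -0.24 with an adjusted p of 0.899. Without the filter Hoxc10, Hoxd9 and Hoxd10 were further lower DEGs, at -4.21 ± 1.23 (SE), -3.65 ± 0.85 (SE) and -4.99 ± 1.26 (SE), with edgeR adjusted p of 0.00764, 0.00095 and 0.00208. Hoxa11, Hoxa13, Hoxb9, Hoxc11, Hoxc12, Hoxd11 and Hoxd12 were not.

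Posterior genes varied widely between normal glands of one age, some of which held no count of a gene that others expressed well. In FVB, Hoxc10 was at 0, 0 and 46.7 at week 6, 139, 0 and 65.5 at week 8, 111, 15.0 and 0 at week 10 and 0, 92.0 and 0 at week 12. Hoxa9 in FVB was at 105, 0 and 109 at week 6, 116, 0 and 78.0 at week 8, 112, 189 and 156 at week 10 and 44.4, 156 and 4.37 at week 12. The FVB libraries at 0 for Hoxa9, week 6 replicate 2 and week 8 replicate 2, also had the lowest Hox sums of FVB, at 122 and 112 CPM beside 159 to 284 CPM in the other 10. The 10 skeletal muscle markers in FVB summed to 45080, 14128 and 14.4 at week 6, 66.4, 22.8 and 137 at week 8, 29.5, 20.9 and 43933 at week 10 and 28345, 678 and 117 at week 12 in CPM. Hoxc10 was at 0 in all 4 FVB libraries above 1000 CPM and also at 0 in 2 of the 8 below. The part of muscle tissue, of the gland taken or of packet size in these values was not tested.

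**Figure D4:**
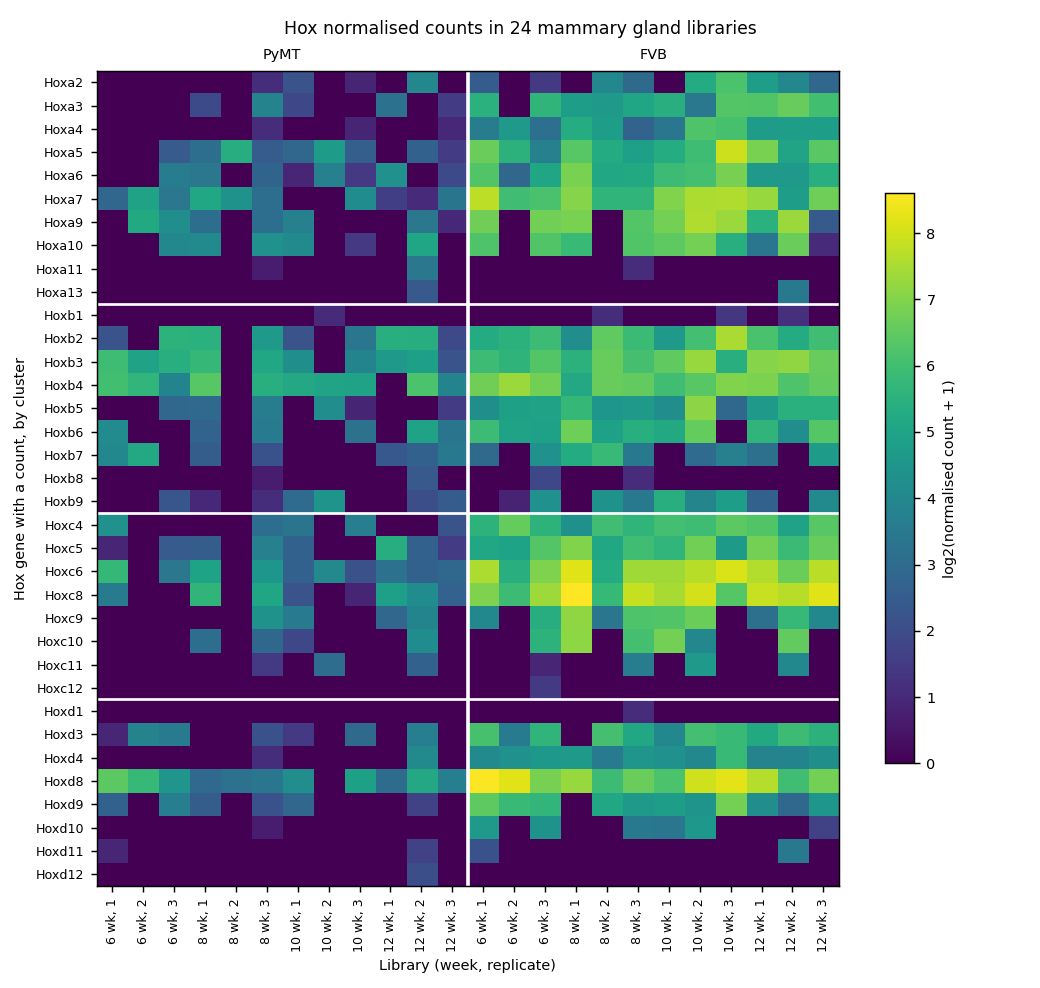
Normalised counts on a log2(count + 1) scale (color) of 35 of the 36 Hox genes with a count (rows, by cluster and paralog number) in the 24 libraries (columns, by genotype, week and replicate). The FVB side is brighter in the central rows, PyMT week 8 replicate 2 shows 3 members only, and Hoxc10 is at 0 in 6 of the 12 FVB libraries.

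Levels of Hox genes within the normal gland were compared as normalised counts per kb of exon. In FVB, Hoxc8 stood highest at 82.2 ± 44.1 per kb (SD, n = 12), followed by Hoxc6 at 66.5 ± 32.1 and Hoxd8 at 63.8 ± 39.8, with SDs that overlapped widely. Hoxa7 (39.4 ± 22.1 per kb) and Hoxa5 (39.3 ± 33.8 per kb) led the Hoxa cluster without differing beyond their spread, and Hoxb3 (29.0 ± 12.9 per kb) led the Hoxb cluster, close to Hoxb4 (23.0 ± 7.58 per kb) and Hoxb6 (22.8 ± 15.0 per kb). In PyMT the highest were Hoxd8 (8.71 ± 8.99 per kb), Hoxb4 (8.68 ± 6.48 per kb) and Hoxb3 (8.51 ± 6.57 per kb), again within each other's SD. Averaged over all 24 libraries the leading member was Hoxa5, Hoxb3, Hoxc8 and Hoxd8 in the 4 clusters. Leaving shared exon bases out of the length raised Hoxd4 from 4.37 to 13.4 per kb over all 24 libraries and moved no other member by more than its SD.

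**Figure D5:**
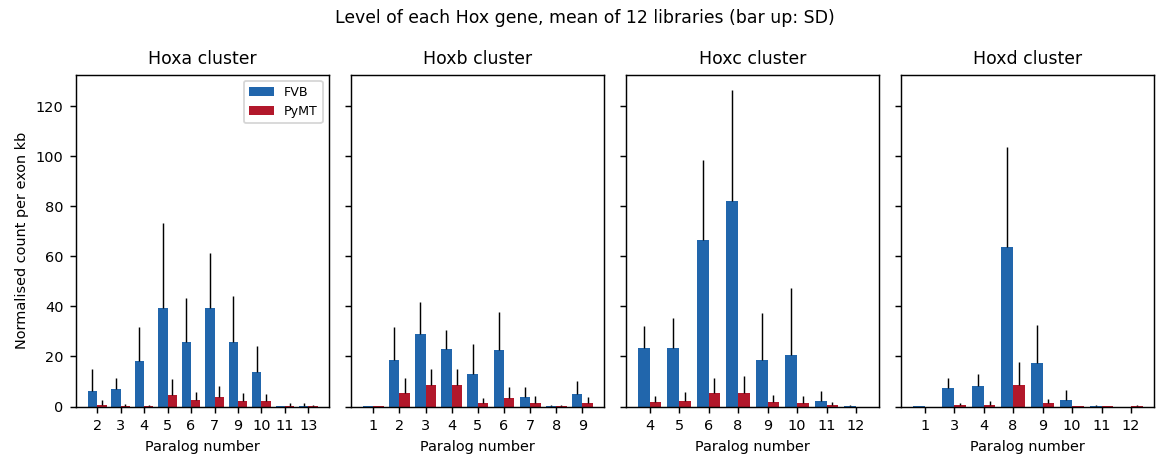
Mean normalised count per kb of exon (y axis, bars from 0, with the SD of 12 libraries drawn upward) of 35 Hox genes with a count by paralog number (x axis) in the 4 clusters, blue for FVB and red for PyMT. Levels in FVB peak at paralogs 5 to 8 of the Hoxa, Hoxc and Hoxd clusters and spread over paralogs 2 to 6 of the Hoxb cluster.

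Summed over a cluster, all 4 were lower in PyMT. The Hoxc sum was 0 to 104 (median 29.8) in PyMT and 198 to 1106 (median 589) in FVB, and the Hoxa sum 20.3 to 78.2 (median 50.1) and 149 to 1048 (median 481). The Hoxd sum was 0 to 93.5 (median 22.0) in PyMT and 142 to 575 (median 226) in FVB. The Hoxb sum was 0 to 197 (median 91.5) in PyMT and 271 to 549 (median 331) in FVB. Hoxb genes made up 44.3% of all Hox counts in PyMT and 21.1% in FVB, with library values of 0 to 54.0% and 13.6 to 42.1%. The cluster sums of the genotypes did not overlap for any of the 4 clusters, whereas the shares of Hoxb did.

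At single ages, with 3 against 3 libraries, fewer members passed the test. The edgeR quasi-likelihood test called 1 lower DEG each at weeks 6 and 8 (Hoxd8 at both), 3 in early carcinoma (Hoxa9, Hoxc6 and Hoxc8) and 9 in late carcinoma (Hoxa3, Hoxa5, Hoxa7, Hoxb3, Hoxb5, Hoxc4, Hoxc6, Hoxc8 and Hoxd8), out of 19 tested and with none higher. Of all 14918 genes 6.46%, 6.37%, 9.09% and 13% were lower DEGs at these ages, so the 1 of 19 at weeks 6 and 8 was near the background. The 19 had passed the filter through FVB. Without the filter 2 of 31, 3 of 32, 5 of 29 and 11 of 34 members with a count were lower DEGs, beside 4.99%, 5.73%, 6.37% and 9.55% of all genes, and 0 were higher. Hoxd8 had a log2 fold change of -2.32 at week 6 (adjusted p = 0.0484), of -3.62 at week 8 (0.0188) and of -2.72 at week 12 (0.0251) by edgeR. The week 6 call was lost when any 1 of 5 of the 6 libraries was left out, the exception being FVB replicate 3, and the week 8 call without PyMT replicate 1, PyMT replicate 3 or FVB replicate 3.

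Most calls at single ages came from the carcinoma ages, at which more of all genes were lower DEGs as well. The median log2 fold change of the 19 members was -3.19, -3.20, -3.91 and -2.72 at weeks 6, 8, 10 and 12. Hoxc6 had a log2 fold change of -4.68 at week 10 (SE 0.70, edgeR adjusted p = 0.00389) and of -4.58 at week 12 (SE 0.50, edgeR adjusted p = 0.000565), and Hoxc8 had -6.68 (0.00534) and -3.82 (0.00161) at these ages. These calls held when any 1 library of the age was left out. Hoxa9 at week 10 went from 153 ± 38.8 in FVB to 4.15 ± 7.19 in PyMT (SD, n = 3 each, edgeR adjusted p = 0.0491) and was no DEG without PyMT replicate 2 or 3 or FVB replicate 1 or 2. Hoxb3 at week 12 went from 124 ± 23.6 to 18.4 ± 12.9 (SD, n = 3 each, edgeR adjusted p = 0.0203), and Hoxb5 from 36.6 ± 10.7 to 0.616 ± 1.07 (0.0141). At week 12 Hoxa3 and Hoxa5 lost their call without PyMT replicate 3, Hoxa7 without FVB replicate 1, Hoxb5 and Hoxc4 without FVB replicate 3, and Hoxd8 without PyMT replicate 1 or 3 or FVB replicate 1 or 3. Every PyMT library lay below every FVB library in 12 of 31 (week 6), 13 of 32 (week 8), 19 of 29 (week 10) and 15 of 34 members with a count (week 12), beside 15.6%, 14.8%, 15.4% and 18.3% of all genes with a count. No member lay wholly above.

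Whether the gap widened with tumor stage was tested directly, and no change was detected. Of the 19 members, 0 passed an adjusted p of 0.05 for a PyMT to FVB difference that changed from week 6 to week 12 or from week 8 to week 10, nor for a change from week 6 to week 12 within PyMT or within FVB (edgeR quasi-likelihood test; DESeq2 also gave 0 in each). Unadjusted p under 0.05 was found for 1, 1, 3 and 0 members in these 4 tests, and over all 14918 genes 0, 1 (0.0067%), 0 and 0 passed the adjusted threshold. The largest member value was the change in the PyMT to FVB difference of Hoxd4 from week 6 to week 12 (edgeR adjusted p = 0.973). No size is given for it, since all PyMT libraries of week 6 were at 0 for Hoxd4. All its week 12 PyMT counts came from replicate 2. For the members measured best the change from week 6 to week 12 was -0.43 ± 1.18 (SE) for Hoxd8, -2.09 ± 1.54 (SE) for Hoxc6 and 1.19 ± 1.59 (SE) for Hoxc8. These SEs were worked back from the test and are approximate. With 3 libraries per group, changes of several fold either way could have gone undetected.

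Other genes in and beside the clusters were read to see whether the difference extended to their neighbours. Inside the clusters, 2 non-Hox genes passed the filter. Hoxb3os, the transcript antisense to Hoxb2 and Hoxb3, was a lower DEG in the week-blocked fit (-3.15 ± 0.78 (SE), edgeR adjusted p = 0.00163), and the pseudogene Gm11539 was not (0.67 ± 0.47, adjusted p = 0.241). Mean normalised counts of Hoxb3os were 7.86 in PyMT and 63.7 in FVB, and whether it passed the filter mainly through FVB was not examined. Its reads may be mixed with those of Hoxb2 and Hoxb3, so its value may not be independent of theirs. The 10 miRNA entries inside the clusters had no counts in these libraries. Several of these entries share bases with another annotated gene, and the libraries were selected by fragment size, by the paper's methods. Whether the miRNAs were expressed can therefore not be read from these counts. Of 17 protein-coding genes within 200 kb outside the clusters 9 passed the filter and 0 were DEGs, with log2 fold changes of -0.36 to 0.67 and negative values in Calcoco1 and Lnp alone. At an adjusted p under 0.05 alone Cbx5 (0.55 ± 0.09, adjusted p = 3.03e-05) and Ube2z (0.67 ± 0.13, adjusted p = 9.11e-05) were higher in PyMT, short of a fold of 2. So was Smug1 (0.29 ± 0.12, adjusted p = 0.0483), and Calcoco1 was lower (-0.36 ± 0.14, adjusted p = 0.0371), all by edgeR. These flanking genes were chosen for naming after their values were seen.

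Genes that work with or on the Hox clusters were mostly no DEGs. Of 8 cofactor genes tested 3 were lower DEGs and 0 higher, where 17.2% of all tested genes were lower and 8.51% higher: Meis2 (log2 fold change -2.63 ± 0.33 (SE), adjusted p = 4.53e-07), Pknox2 (log2 fold change -2.48 ± 0.72 (SE), adjusted p = 0.00552) and Meis3 (log2 fold change -1.08 ± 0.39 (SE), adjusted p = 0.0229), while the 3 Pbx genes and Meis1 were not (edgeR, week-blocked). Of 24 Polycomb genes 1 was a lower DEG, Cbx7 (log2 fold change -1.91 ± 0.18 (SE), adjusted p = 3.28e-09), a subunit of the repressive complex that reads methylated histone H3, and 0 were higher. Of 13 Trithorax and histone demethylase genes, those of 19 listed that matched by symbol, 0 were DEGs. The medians of the log2 fold changes were -0.27, -0.16 and -0.02 for these lists, beside -0.03 over all tested genes. Among 14 genes of the retinoid pathway, through which retinoic acid turns on Hox genes in the embryo, 5 were lower DEGs and 1 was higher (17.2% and 8.51% of all genes), with a median log2 fold change of -0.55. The 3 with the smallest adjusted p were Crabp2, a carrier of retinoic acid that rose (log2 fold change 2.78 ± 0.29 (SE), adjusted p = 2.38e-08), Rxrg, a retinoid receptor (log2 fold change -4.51 ± 0.70 (SE), adjusted p = 8.62e-06), and Aldh1a1, an enzyme that makes retinoic acid (log2 fold change -3.46 ± 0.61 (SE), adjusted p = 4.7e-05); no Cdx gene passed the filter.

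Of 20 other listed transcription factors of limb and trunk mesenchyme, 3 had no count and 9 passed the filter. The 20 genes summed to 33.1 to 88.6 CPM in PyMT and 217 to 457 CPM in FVB. Whether these 9 passed mainly through FVB libraries was not examined, so nothing is read from how many of them were called. In the week-blocked fit 8 of the 9 were lower DEGs, where 17.2% of all genes were, with a median log2 fold change of -2.70. The 3 with the smallest adjusted p were Prrx1 (log2 fold change -2.70 ± 0.21 (SE), adjusted p = 2.15e-10), Tbx3, a gene needed to form the mammary bud (log2 fold change -3.24 ± 0.32 (SE), adjusted p = 1.08e-08), and Msx2 (log2 fold change -4.40 ± 0.74 (SE), adjusted p = 2.38e-05), all by edgeR.

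Markers of adipocytes, fibroblasts and endothelial cells were also lower in PyMT in the week-blocked fit, in which 17.2% of all genes were lower DEGs and 8.51% higher. The 8 adipocyte markers were all lower DEGs (median log2 fold change -3.95, summed level 244 to 1939 CPM in PyMT and 4962 to 10622 CPM in FVB), as were the 8 fibroblast markers (median -1.97, 2819 to 6182 CPM and 5048 to 22221 CPM) and the 8 endothelial markers (median -2.29, 106 to 347 CPM and 552 to 1201 CPM). Of 8 basal or myoepithelial markers 5 were lower DEGs (169 to 795 CPM in PyMT and 357 to 1843 CPM in FVB), and 7 of 8 luminal markers were higher. All 9 skeletal muscle markers tested were lower DEGs (median -4.64), with sums of 1.94 to 3933 CPM in PyMT and 14.4 to 45080 CPM in FVB. Of 7 macrophage and 2 lymphocyte markers tested 0 were DEGs, with sums of 316 to 516 CPM and 21.9 to 77.6 CPM in PyMT beside 239 to 501 CPM and 22.5 to 98.5 CPM in FVB. No marker of the adipocyte, fibroblast, endothelial or muscle lists was at 0 in all libraries. The part of these cell types in the Hox difference was not tested.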

How the data were processed

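RNA of 24 mammary tissue libraries was sequenced, and the authors trimmed adapters, aligned reads to mouse build mm9 with GSNAP and counted them per gene with HTSeq, as the methods and the submitters' processing notes state. The deposited values are raw read counts per Ensembl gene, one column per library, with 0 columns left unmatched. The libraries were directional by the paper's methods. The counting mode and its strand setting are not given in the sources used here. Gene symbols and positions were taken from GENCODE M1 on the same build. Genes of at least 1 CPM in at least 12 of 24 libraries were kept (14918 of 37991). PyMT was compared with FVB at each week and with week as a block over all 24 libraries, and changes between weeks were tested as contrasts of the 8 group means, by edgeR 4.0.16 (R 4.3.3) with TMM scaling, quasi-likelihood tests and Benjamini-Hochberg adjustment over all tested genes. DEGs changed more than 2-fold at an adjusted p below 0.05, and changes between weeks were called at an adjusted p under 0.05 alone. The SE of an edgeR log2 fold change was its absolute value divided by the square root of the F statistic of its test. It was not estimated directly and is approximate, most of all for genes with many libraries at 0.

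Levels were counts divided by DESeq2 1.42.0 size factors. A packet size was the count, at 5 or more, at which the smoothed number of genes per count value peaked again. Reads carry no molecular identifiers, and no fold is given against a group whose libraries were all at 0, since many of these had a packet size. Libraries held 6969375 to 13516601 counts, which leaves most Hox genes at low counts. Alternatives were the edgeR exact test, DESeq2, limma 3.58.1 voom, other scaling, no filter, a replicate block, division by the packet size and leaving out libraries. The fits were also run on simulated counts. These were drawn without a packet size, so that run cannot speak to libraries that have one. Members and gene lists were chosen with earlier results of these data known. Every Hox DEG was named, with values by library for the 10 with the smallest week-blocked adjusted p, as well as the highest member per exon length of each cluster, up to 3 DEGs of each other list by adjusted p, and tested non-Hox genes inside the clusters. Figures were drawn with matplotlib 3.10.9 under Python 3.11.15. The values of 1 member and 1 promoter sequence are not reported here.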

Additional observations from a re-analysis of the deposited data

How the results depend on the processing

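In the week-blocked fits without the filter 34 of 36 members had a lower value in PyMT, and 30 of 35 did without the libraries that had a packet size. Among the 33 gene values named from the main tests none changed sign, and 657 of 722 week-blocked values kept their call. Nothing is read from counts of calls among the 19 members past the filter. Each of them reached 1 CPM in more FVB than PyMT libraries. Of the 19 members past the filter, 18 were lower at week 8 under voom and at week 12 without FVB replicate 2. The week-blocked count of 19 Hox DEGs fell to 10 with the 11 libraries without a packet size, in which the median log2 fold change of the 19 was -3.13 beside -3.52 with all 24. Fits on those 11 libraries compared the genotypes at weeks 8 and 12 only. At week 6, where 1 Hox gene was a DEG, the edgeR exact test gave 7, DESeq2 7, no filter 2, division by packet size 3, one fit of all 24 libraries 5, and scaling by library size alone and voom gave 0 each. At week 8, also 1, the exact test gave 4, DESeq2 5, no filter 3, voom 2, division by packet size 9 and one fit of all libraries 2. At week 10, with 3, the exact test gave 11, DESeq2 15, no filter 5, voom 10, division by packet size 16 and one fit of all libraries 7. At week 12, with 9, the exact test gave 11, DESeq2 12, no filter 11, voom 11, division by packet size 10 and one fit of all libraries 7. The cause was not tested. Leaving out 1 library at a time gave 0 to 2 Hox DEGs at week 6, 0 to 1 at week 8, 2 to 3 at week 10, 6 to 10 at week 12 and 16 to 19 in the week-blocked comparison, and 0 in each test between weeks.

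With the replicate number as a block, the counts were 1, 0, 3 and 8 at weeks 6, 8, 10 and 12 and 18 in the week-blocked comparison. The labels give no shared origin for equal numbers, so the numbers were not taken as pairs in the main fits. Deviations of same-numbered libraries correlated at -0.04 to 0.20. Of 12 pairs 8 correlated best with their own number, more than random matching would give on average. A shared batch of equal numbers was not tested. Leaving out libraries with muscle markers, and leaving out the filter together with libraries that had a packet size, were chosen after seeing the data. Counts near 0 limit most posterior genes and the single ages.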

Other observations

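PyMT week 12 replicate 2, a late carcinoma without a packet size, held counts for 11 posterior Hox genes, more than any other PyMT library. Its normalised counts were 9.62 for Hoxa11, 4.27 for Hoxa13 and 3.21 for Hoxd12, and it was the only PyMT library with a count of Hoxa13 or Hoxd12. Hoxd12 was at 0 in all 12 FVB libraries, and Hoxa13 was at 10.1 in FVB week 12 replicate 2. The same library gave 16.0 of Hoxd4, which the other 2 libraries of its group lacked, and had the highest Hox sum of all PyMT libraries at 52.5 CPM.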
